A study of Mus musculus with 16 samples.

Results

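The 39 genes described here are the working parts of protein folding in the endoplasmic reticulum (ER) and of the unfolded protein response: chaperones, protein disulfide isomerases, DnaJ partners of the chaperones, members of ER-associated degradation (ERAD), 2 translocon subunits, and the stress sensors with their transcription factors. They were chosen by gene symbol from knowledge of the pathway, not by a cutoff on measured values. Earlier results of these data were known when they were chosen. All 39 have a row among the 24371 genes of the deposited table. RNA was sequenced from hearts of mice that modelled HFpEF (heart failure in which the ejection fraction is preserved), produced by 12 weeks of the nitric oxide synthase inhibitor L-NAME together with a high-fat diet. Both the L-NAME and the diet were given to every group, so no healthy heart enters any comparison here. The 4 groups of 4 hearts were Myh6Cre Gpr91fl/fl mice given succinate, Gpr91fl/fl mice given succinate, Myh6Cre Gpr91fl/fl mice without succinate, and Gpr91fl/fl mice without succinate, and they are called Cre and floxed hearts, with succinate or untreated, from here on.

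Gpr91, listed in the table as Sucnr1, is the cell surface receptor for extracellular succinate. Myh6 is the promoter of a cardiomyocyte myosin heavy chain, so that Cre acts in heart muscle cells while the receptor remains in the other cells of the tissue. No wild-type mouse and no Cre mouse without the floxed allele was analysed here, so an effect of Cre itself cannot be told apart from loss of the receptor. The labels do not give age, sex, dose or route of succinate, and they do not state that each library came from a separate mouse, so each p-value reflects only how far these 16 samples differ from one another, which can be technical in part.

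Proteins made for secretion or for membranes enter the ER through the Sec61 channel, are bound by the chaperone BiP, and gain disulfide bonds from the disulfide isomerases. When unfolded protein accumulates, the sensors IRE1 (Ern1), PERK (Eif2ak3) and ATF6 raise the transcription of chaperone and ERAD genes through XBP1, ATF4 and the cleaved form of ATF6. In the heart this response is known for its links to pressure load, ischaemia and the calcium store of the muscle cell, which is held in the same membrane system.

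Promoters of this pathway are known for the ER stress response element (ERSE), to which ATF6 and XBP1 bind beside the factor NF-Y. RefSeq promoter windows reaching from 250 bases before to 50 bases after the annotated start were found for 33 of the 39 members, which have 37 windows among them, on build GRCm38.p6. The deposited tables were made on GRCm39, so these coordinates belong to the reference only. Both strands were searched for exact matches to 3 motifs. ERSE was CCAAT, then 9 bases of any kind, then CCACG. ERSE-II was ATTGG, then 1 base of any kind, then CCACG. The unfolded protein response element UPRE was TGACGTGG. ERSE and ERSE-II share the CCACG end and the CCAAT box, which ERSE-II holds as its complement ATTGG. ERSE stood in 9 of the 37 member windows and in 39 of all 32851 windows, which is 0.119%. ERSE-II stood in 2 member windows and in 0.0365% of all windows, and UPRE stood in 2 member windows and in 0.676% of all. The stretches below hold the ERSE matches of the members and the ERSE-II of Herpud1, in capitals, with the whole upstream window for Hspa5, the gene of BiP, which fell with succinate, and for Herpud1, which rose. All are written in the direction of the gene, and a match on the other strand reads CGTGG to ATTGG.
Hspa5: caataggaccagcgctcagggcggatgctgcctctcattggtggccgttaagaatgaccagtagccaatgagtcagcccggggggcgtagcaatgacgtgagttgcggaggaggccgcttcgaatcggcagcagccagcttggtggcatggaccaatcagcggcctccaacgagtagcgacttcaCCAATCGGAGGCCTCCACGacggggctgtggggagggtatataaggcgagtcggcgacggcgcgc
Herpud1: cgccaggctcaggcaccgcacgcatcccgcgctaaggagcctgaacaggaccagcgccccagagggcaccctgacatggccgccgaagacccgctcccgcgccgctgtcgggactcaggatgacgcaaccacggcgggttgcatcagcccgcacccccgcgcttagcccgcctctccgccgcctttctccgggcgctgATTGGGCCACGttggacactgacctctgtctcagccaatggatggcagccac
Hsp90b1: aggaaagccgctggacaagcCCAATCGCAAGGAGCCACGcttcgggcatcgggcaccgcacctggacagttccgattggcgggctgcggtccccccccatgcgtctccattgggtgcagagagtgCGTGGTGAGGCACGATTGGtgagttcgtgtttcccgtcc
Calr: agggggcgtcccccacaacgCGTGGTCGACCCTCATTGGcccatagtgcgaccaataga
Pdia6: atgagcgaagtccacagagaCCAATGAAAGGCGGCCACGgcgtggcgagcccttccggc
Creld2: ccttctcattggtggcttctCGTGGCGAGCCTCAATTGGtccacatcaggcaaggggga
Canx: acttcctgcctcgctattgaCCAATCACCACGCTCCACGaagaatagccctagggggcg
Dnajc3: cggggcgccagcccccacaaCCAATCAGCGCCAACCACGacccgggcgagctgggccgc
Syvn1: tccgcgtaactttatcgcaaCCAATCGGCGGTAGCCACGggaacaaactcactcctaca
Derl3: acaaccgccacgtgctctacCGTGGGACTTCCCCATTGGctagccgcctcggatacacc

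These stretches lie at chr2:34771840-34772089 (plus strand, Hspa5), chr8:94386179-94386428 (plus strand, Herpud1), chr10:86705513-86705676 (minus strand, Hsp90b1), chr8:84847055-84847113 (minus strand, Calr), and chr12:17266471-17266529 (plus strand, Pdia6).
The others lie at chr15:88819500-88819558 (plus strand, Creld2), chr11:50325780-50325838 (minus strand, Canx), chr14:118937807-118937865 (plus strand, Dnajc3), chr19:6046512-6046570 (plus strand, Syvn1), and chr10:75893222-75893280 (plus strand, Derl3).
The ERSE of Hspa5 covered positions -65 to -47 from the start, and Hsp90b1 was the only member with a pair of them, at -212 to -194 and, on the other strand, at -107 to -89. Herpud1 carried no exact ERSE and had its ERSE-II at -52 to -42. The other ERSE-II, in Dnajb11, began 7 bases after the start, and the UPRE matches were those of Txndc5 and Txndc11. A match of letters describes the reference sequence and is neither a measured binding site nor a cause of the values that follow.

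**Figure D1:**
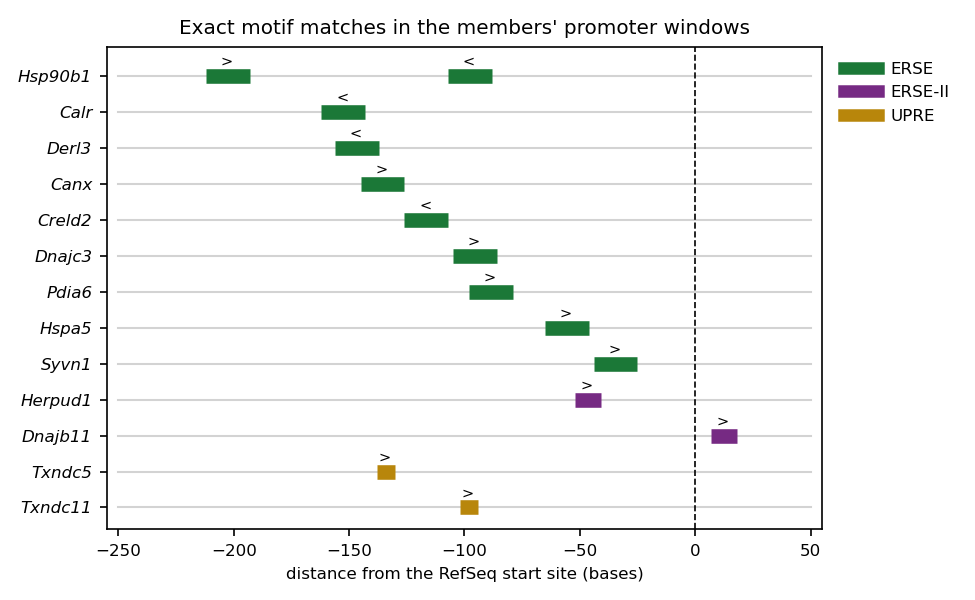
Exact ERSE, ERSE-II and UPRE matches in the RefSeq promoter windows of the members that hold at least 1, by distance in bases from the annotated start (dashed line), with the arrow head giving the strand relative to the gene. The 9 members with ERSE hold it between -212 and -26.

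The 16 libraries held 27835235 to 34700996 counts assigned to genes, of which 23.5% to 27.7% came from mitochondrially encoded genes. After removal of genes with low counts 14607 genes were tested, among them 38 of the 39 members. Derl3, which encodes a derlin of ERAD best known from secretory cells, had 0 to 8 counts per heart and was not tested. Its matched promoter holds an ERSE, shown above. Sucnr1 had only 2 to 13 counts per library in Cre hearts with succinate, 0 to 7 in floxed hearts with succinate, 2 to 21 in untreated Cre hearts and 0 to 4 in untreated floxed hearts, where 3 counts correspond to 0.0865 to 0.108 CPM (counts scaled to a fixed library total), so these libraries do not check the deletion. Summed over each group the counts were 31, 14, 32 and 6 in the same order, higher in the groups labelled as Cre than in the floxed groups, which is opposite to what the label of a deletion gives. Cre and floxed therefore name the labelled genotype throughout. Cardiomyocyte markers (Myh6, Tnnt2, Actn2, Tnni3, Ryr2 and Myl2) summed to 29657 to 47074 CPM over the hearts, so the tissue carried its defining transcripts. Genes detected numbered 18537 to 19130 in Cre libraries and 18038 to 18376 in floxed ones.

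On a length-corrected scale the members spanned a wide range of levels. Hspa5, which encodes BiP, had the highest FPKM of the members at 139 ± 41.2 (SD over 16 hearts), followed by Calr, encoding the calcium-binding lectin chaperone calreticulin, at 130 ± 40.0 FPKM. Herpud1 and Hsp90b1 averaged 112 ± 29.2 and 112 ± 23.7 FPKM, and P4hb averaged 91.2 ± 17.3 FPKM. Each of the first 4 in this order lay within 1 SD of the next. At the low end Hspa13, Ern1 and Eif2ak3 averaged 2.49, 2.42 and 2.32 FPKM, and Derl3 averaged 0.0555 FPKM. P4hb, the lowest of the first 5, lay above 97.8% of all genes of the table by mean FPKM, whereas the sensor kinases Ern1 and Eif2ak3 lay above 66.2% and 65.6%.

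The question of the first comparison was what succinate did in HFpEF hearts labelled Gpr91fl/fl, without Myh6Cre. In floxed hearts the ER folding genes were mostly lower with succinate: 18 of the 38 members tested fell and 2 rose at an adjusted p of 0.05 or less, a total of 20. Over all 14607 genes, 13.1% passed in either direction, 5.64% lower and 7.48% higher. The median log2 fold change of the members was -0.28, against 0.00 for all genes, and 32 of 38 members had a negative value, against 49.7% of all genes. For 18 members all 4 succinate-treated floxed hearts lay below all 4 untreated floxed hearts, and for 1 member they lay above, where 7.65% and 10.2% of all genes did so. By role, 8 of 10 chaperones, 6 of 7 disulfide isomerases, 1 of 4 DnaJ partners, 1 of 10 ERAD members, 1 of 2 translocon subunits and 1 of 5 sensors and factors fell, with median log2 values of -0.73, -0.56, -0.16, -0.08, -0.42 and -0.10. Values by heart are given below as CPM with TMM scaling, edgeR's correction for composition, which may be compared between hearts but not between genes, and fold changes are edgeR's, with their standard error.

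**Figure D2:**
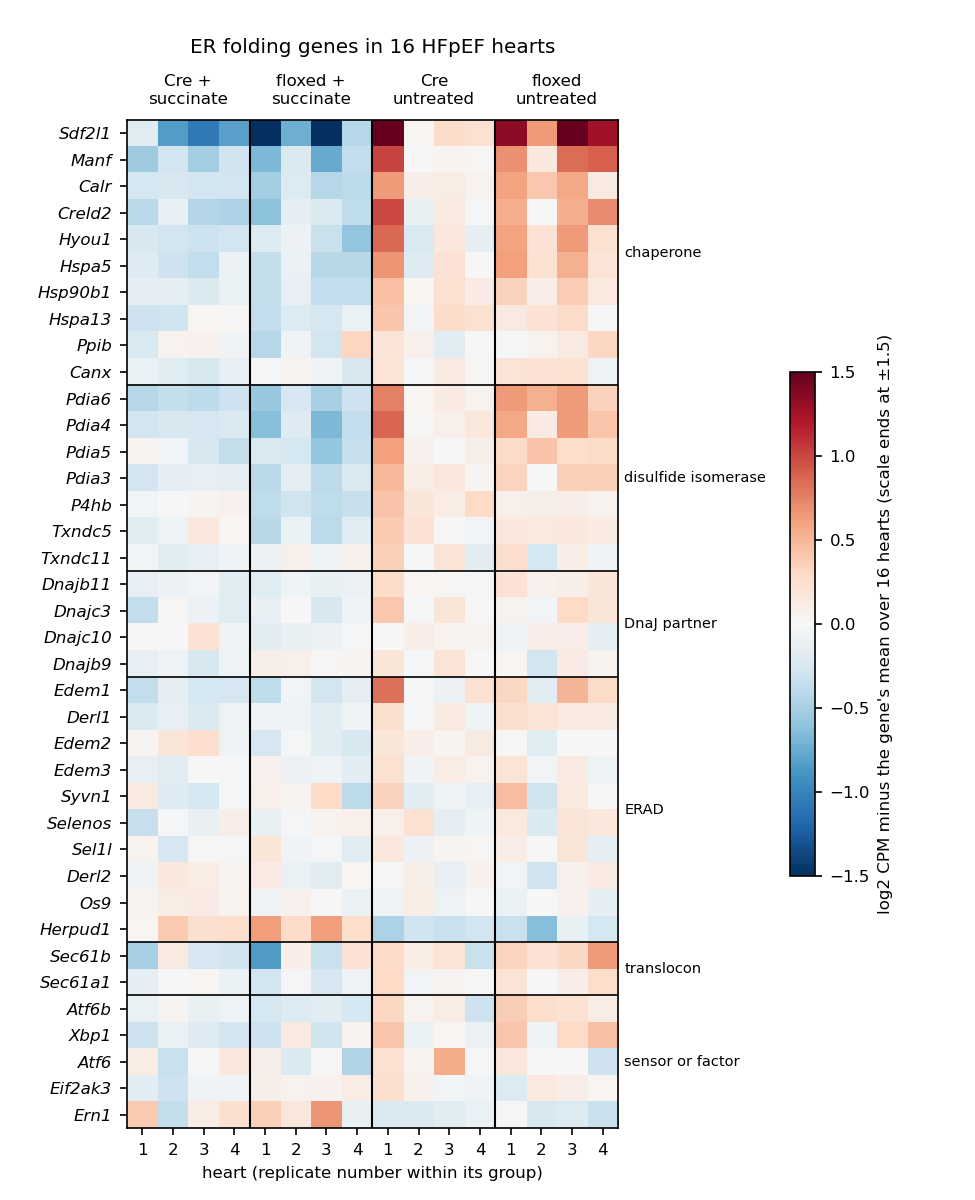
Each of the 38 tested members (rows, by role and then by fold change in floxed hearts) in each of 16 hearts (columns), as log2 CPM minus the member's mean over the 16 hearts, with red above and blue below that mean. Chaperones and disulfide isomerases are mostly blue in the 8 succinate-treated hearts and mostly red in the untreated floxed hearts and in untreated Cre replicate 1, and Herpud1 has the opposite colours.

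Among the chaperones, BiP itself fell. Hspa5 had 273, 325, 262 and 261 CPM in floxed hearts with succinate, against 535, 409, 504 and 403 CPM in untreated floxed hearts. The groups did not overlap, and the fitted change was 1.65-fold lower (log2 -0.72 ± 0.15 SE, adjusted p = 0.0050). Its ER-resident relative of the HSP90 family, Hsp90b1 (GRP94), had 235, 277, 234 and 233 CPM with succinate, against 382, 324, 393 and 334 CPM in untreated floxed hearts, again with no overlap, and fell 1.46-fold (log2 -0.55 ± 0.10, adjusted p = 0.0023). Replicate 2 was the highest succinate-treated floxed heart for both.

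Calreticulin fell, and its membrane-bound partner calnexin did not pass. Calr had 171, 210, 180 and 186 CPM in floxed hearts with succinate, against 370, 322, 362 and 266 CPM untreated, a 1.76-fold fall (log2 -0.82 ± 0.13, adjusted p = 0.00063). Canx, for calnexin, had 255, 269, 251 and 221 CPM with succinate, against 298, 301, 304 and 247 CPM untreated, with overlapping hearts and a log2 difference of -0.21 ± 0.09 that did not pass (adjusted p = 0.13).

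The largest fold change among the members tested was that of Sdf2l1, an ER luminal protein that works with the co-chaperone Dnajb11. Sdf2l1 had 0.848, 1.90, 0.880 and 2.35 CPM in floxed hearts with succinate, against 8.03, 4.91, 12.7 and 7.59 CPM untreated. It fell 5.59-fold (log2 -2.48 ± 0.46, adjusted p = 0.0031), and even the highest treated heart was below the lowest untreated heart, though the treated hearts differed among themselves more than for any other member (SD 0.76 on the log2 scale). Manf, which encodes a small ER protein that binds BiP and is also secreted, followed with 16.4, 22.5, 15.5 and 20.3 CPM with succinate, against 42.1, 29.1, 46.8 and 48.9 CPM untreated, a 2.24-fold fall (log2 -1.16 ± 0.22, adjusted p = 0.0029).

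The nucleotide exchange factor of BiP and a further ER-stress-inducible gene showed the same pattern with more spread. Hyou1, encoding that exchange factor (GRP170), had 31.1, 33.5, 28.4 and 23.7 CPM in floxed hearts with succinate, against 54.0, 41.6, 55.7 and 41.9 CPM untreated, and fell 1.66-fold (log2 -0.73 ± 0.19, adjusted p = 0.018). Creld2, a cysteine-rich ER protein, had 7.60, 10.7, 10.03 and 8.96 CPM with succinate, against 17.1, 11.6, 17.0 and 19.1 CPM untreated, and fell 1.74-fold (log2 -0.80 ± 0.21, adjusted p = 0.020). Neither had overlapping hearts. Hyou1 missed the threshold without untreated floxed replicate 3 (adjusted p = 0.054), and Creld2 missed it without untreated floxed replicate 3 (0.050, just above the limit) or 4 (0.054) or without succinate floxed replicate 1 (0.073). The remaining chaperones were Hspa13, which fell with a log2 value of -0.39, and the proline isomerase Ppib, at -0.21, which did not pass (adjusted p = 0.30). The call of Hspa13 was lost in 6 of 28 alternatives, 5 of them the omission of untreated floxed replicate 1, 2 or 3 or of succinate floxed replicate 1 or 3, with an adjusted p of up to 0.103.

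Disulfide isomerases, which form and rearrange the disulfide bonds of client proteins, fell in 6 of 7 cases. Pdia6 had the smallest p of all members: 48.9, 61.2, 51.6 and 58.8 CPM in floxed hearts with succinate, against 113, 106, 113 and 92.6 CPM untreated. It fell 1.92-fold (log2 -0.94 ± 0.13, adjusted p = 0.00033). Pdia4 had 17.4, 23.7, 17.0 and 20.9 CPM with succinate, against 40.6, 29.6, 42.1 and 36.3 CPM untreated, a 1.88-fold fall (log2 -0.91 ± 0.17, adjusted p = 0.0024). In both, replicates 2 and 4 were the higher of the treated hearts, and no treated heart reached the untreated range.

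The isomerase of glycoproteins, Pdia3 (ERp57), had 93.3, 112, 94.2 and 107 CPM in floxed hearts with succinate, against 157, 125, 158 and 158 CPM untreated, and fell 1.47-fold (log2 -0.56 ± 0.11, adjusted p = 0.0027). Pdia5 had 3.90, 3.80, 3.03 and 3.61 CPM with succinate, against 5.58, 6.13, 5.49 and 5.58 CPM untreated, a 1.59-fold fall (log2 -0.67 ± 0.16, adjusted p = 0.010). Hearts of the 2 groups did not overlap for either gene, and the untreated floxed hearts were tight for Pdia5.

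P4hb, protein disulfide isomerase itself and a subunit of collagen prolyl 4-hydroxylase, had 196, 209, 197 and 202 CPM in floxed hearts with succinate, against 271, 273, 275 and 266 CPM untreated. Its fall was small, 1.35-fold, but the hearts within each group were nearly equal (log2 -0.43 ± 0.08, adjusted p = 0.0021). Txndc5 (ERp46) had 37.6, 46.7, 38.2 and 44.3 CPM with succinate, against 56.0, 55.3, 55.8 and 54.5 CPM untreated, and fell 1.33-fold (log2 -0.41 ± 0.10, adjusted p = 0.014), a call that was lost without succinate floxed replicate 1 (adjusted p = 0.053). The remaining isomerase, Txndc11, had a log2 value of -0.02 ± 0.12 and did not pass.

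**Figure D3:**
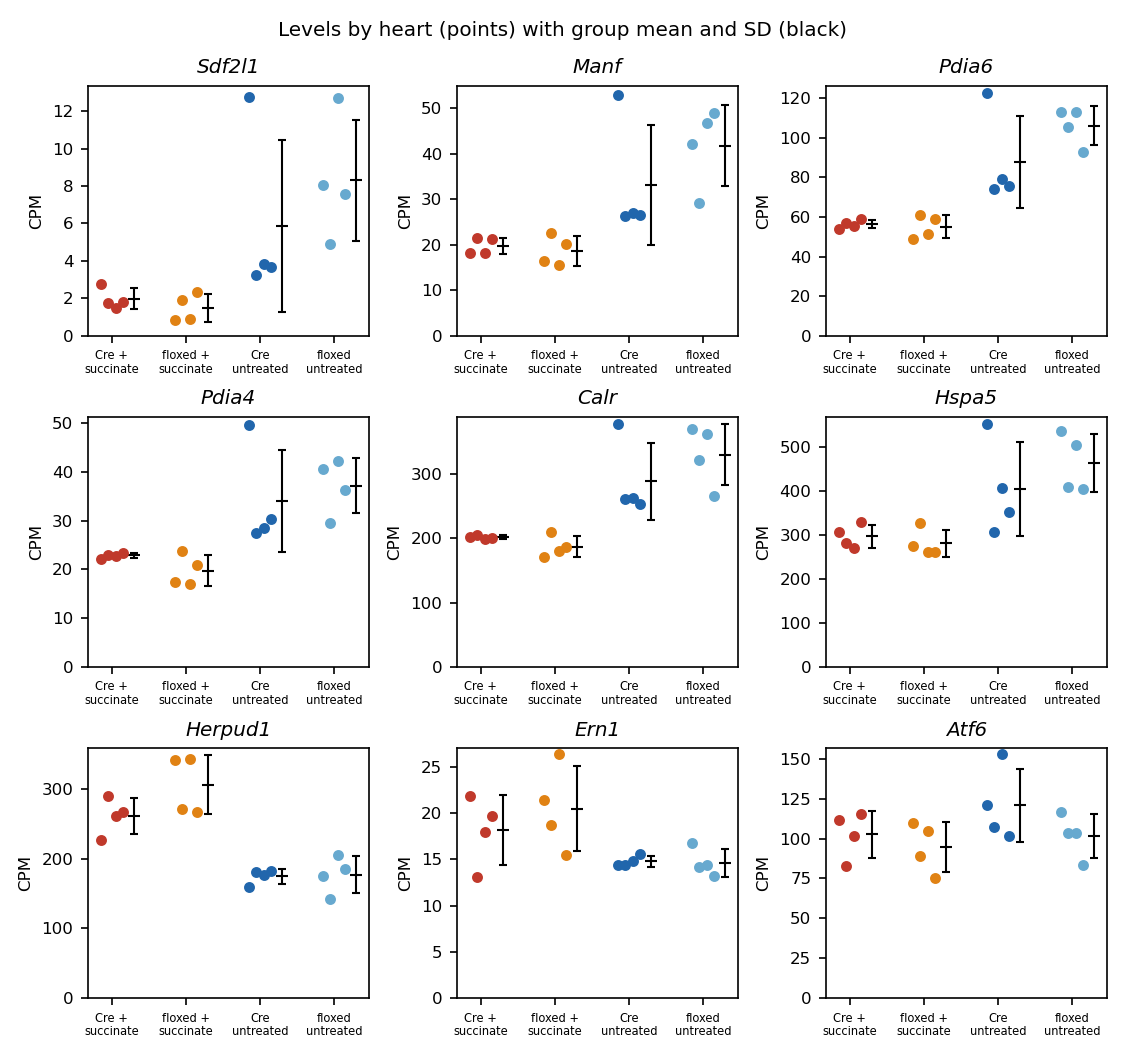
CPM in each heart (points) for 9 members, with the group mean and SD in black, for Cre hearts with succinate, floxed hearts with succinate, untreated Cre hearts and untreated floxed hearts from left to right. For Sdf2l1, Manf, Pdia6, Pdia4 and Calr no treated heart reaches the untreated hearts of its genotype, Herpud1 runs the other way, and a single untreated Cre heart lies far above its group for the first 5.

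Of the 10 ERAD members tested, 1 rose, 1 fell and 8 did not pass, and the largest change was a rise. Herpud1, whose product helps assemble the ubiquitin ligase complex of ERAD and which is itself known as a gene of the unfolded protein response, had 343, 272, 344 and 268 CPM in floxed hearts with succinate, against 176, 142, 206 and 185 CPM untreated. It rose 1.73-fold with no overlap (log2 0.79 ± 0.12, adjusted p = 0.00052). Derl1, a derlin of the retrotranslocation channel, had 60.2, 59.1, 55.5 and 59.9 CPM with succinate, against 73.8, 72.0, 68.3 and 67.8 CPM untreated, and fell 1.20-fold (log2 -0.26 ± 0.08, adjusted p = 0.029), which did not hold in 4 of 28 alternatives, among them the omission of untreated floxed replicate 1 (adjusted p = 0.066) or of succinate floxed replicate 1 (0.059) or 3 (0.072). Edem1, a lectin that marks misfolded glycoproteins for degradation, had 13, 16.5, 14.1 and 15.3 CPM with succinate, against 21.2, 15.1, 24.2 and 20.8 CPM untreated, with overlap through untreated replicate 2 and an adjusted p of 0.084 (log2 -0.46 ± 0.17). The other ERAD members tested, Edem2, Edem3, Syvn1, Sel1l, Derl2, Os9 and Selenos, did not pass, with adjusted p-values of 0.40 or more.

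Of the DnaJ partners, which deliver clients to BiP, only Dnajb11 fell (log2 -0.25 ± 0.08, adjusted p = 0.036), and this call was lost in 6 of 28 alternatives, including the omission of untreated floxed replicate 1 (adjusted p = 0.087) or 4 (0.076) or of succinate floxed replicate 1 (0.108) or 3 (0.069). Dnajc3 (P58IPK) had 50.5, 54.2, 46.2 and 52.6 CPM in floxed hearts with succinate, against 56.4, 52.9, 66.8 and 61.6 CPM untreated (log2 -0.22 ± 0.11, adjusted p = 0.17). Dnajb9 (ERdj4) and Dnajc10 (ERdj5), with log2 values of 0.07 ± 0.09 and -0.10 ± 0.08, did not pass either. In the translocon, Sec61a1, the channel subunit, fell (log2 -0.30 ± 0.09, adjusted p = 0.034), and this too was lost in 6 of 28 alternatives, with an adjusted p of up to 0.113 when untreated floxed replicate 1, 3 or 4 or succinate floxed replicate 1 or 3 was left out. Sec61b, the small beta subunit, had 4.34, 8.35, 6.16 and 9.08 CPM with succinate, against 9.82, 9.02, 9.69 and 12.2 CPM untreated, with an adjusted p of 0.078 (log2 -0.55 ± 0.20).

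Of the 5 sensors and factors 1 fell, 1 rose and 3 did not pass. Atf6b, the paralog of ATF6, had 14.1, 14.8, 15.1 and 14.2 CPM in floxed hearts with succinate, against 22, 20.4, 19.96 and 18.43 CPM untreated, and fell 1.39-fold without overlap (log2 -0.48 ± 0.11, adjusted p = 0.0080). Atf6 itself had 110, 89.3, 105 and 75.6 CPM with succinate, against 117, 103, 103 and 83.6 CPM untreated (log2 -0.10 ± 0.15, adjusted p = 0.69). The difference between these paralogs within the comparison was not tested.

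Ern1, the sensor that splices Xbp1 mRNA, had 21.4, 18.7, 26.4 and 15.5 CPM in floxed hearts with succinate, against 16.7, 14.1, 14.4 and 13.2 CPM untreated. It rose 1.40-fold (log2 0.49 ± 0.15, adjusted p = 0.041), but the hearts overlapped and the call was lost in 15 of 28 alternatives, with a log2 value of 0.30 on the log2(FPKM + 1) scale and of 0.33 (adjusted p = 0.179) without succinate floxed replicate 3. The other omissions of a floxed heart that ended it were those of untreated replicates 1 to 4 and of succinate replicates 1 and 2, and the omission of untreated Cre replicate 2 or 4 or of succinate Cre replicate 3 ended it as well. Xbp1 had 42.6, 58.0, 42.9 and 55.02 CPM with succinate, against 70.9, 50.6, 65.1 and 71.7 CPM untreated, which did not pass (log2 -0.38 ± 0.13, adjusted p = 0.068). Gene counts do not separate the spliced from the unspliced form of this mRNA. Eif2ak3 (PERK) had 11.9, 11.7, 11.7 and 12.2 CPM with succinate, against 9.71, 12.4, 12.0 and 11.4 CPM untreated (log2 0.06 ± 0.10, adjusted p = 0.75), and its sign turned (log2 -0.027) without untreated floxed replicate 1.

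Some markers of other cells moved with this comparison. Of 6 macrophage markers (Adgre1, Csf1r, Cd68, Mrc1, C1qa and Lyve1), 4 fell, and their summed level, as CPM without TMM scaling, was 110 to 171 in floxed hearts with succinate and 199 to 297 in untreated floxed hearts. Of the 6 cardiomyocyte markers Myh6 and Ryr2 rose and the other 4 did not pass, 1 of them with a negative value. Their sum was 41415 to 47074 with succinate and 33523 to 39618 untreated. Myh6 weighed most in this sum, with a mean log2 CPM of 14.26 over the hearts, against 12.84 for Myl2, the next highest. Of the other lists, 0 of 7 fibroblast, 0 of 5 smooth muscle and pericyte and 0 of 4 tested B and plasma cell markers passed. Their median log2 values in this order were -0.21 (6 of 7 negative), -0.66 (4 of 5 negative) and 0.09 (2 of 4 negative), so these lists are not shown to be steady. B and plasma cell sums were 1.63 to 5.91 CPM with succinate and 2.18 to 3.16 CPM untreated. Of 5 endothelial markers Emcn fell (log2 -0.42 ± 0.13), of 2 tested atrial markers Nppa fell (log2 -1.92 ± 0.44), and the adipocyte markers were too low to test, with sums of at most 0.444 CPM. The part of these cell types in the fall of the ER genes was not tested, and in whole tissue fewer cells of a type and less RNA per cell cannot be told apart.

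The second comparison asked what succinate did in hearts labelled Myh6Cre Gpr91fl/fl, in which Sucnr1 counts were not lower than in floxed hearts, and it shares no heart with the first. In Cre hearts most members had negative values and 2 passed: 1 member fell, Pdia6, and 1 rose, Herpud1, so that 2 of 38 members were called, where 0.917% of all genes were, 0.315% lower and 0.602% higher. The median log2 value of the members was -0.24, against 0.01 for all genes, and 34 of 38 were negative, against 48.7% of all genes. All 4 treated Cre hearts lay below all 4 untreated Cre hearts for 15 members and above them for 1, where 3.39% and 4.8% of all genes did so. At an unadjusted p of 0.05 or less there were 21 of 38 members and 14.1% of all genes. DESeq2 called 11 members, but the 0.917% above is edgeR's share, and DESeq2's share of all genes is not given here. Macrophage markers summed to 135 to 244 CPM in Cre hearts with succinate and to 211 to 301 CPM in untreated Cre hearts, with 0 of 6 called. Cardiomyocyte markers summed to 39407 to 44880 CPM with succinate and 29657 to 36506 CPM untreated. Of these 6, Myh6 alone was called (log2 0.56 ± 0.13, adjusted p = 0.049) and 5 did not pass. Their part in the values that follow was not tested.

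Pdia6 had 54.0, 56.9, 55.5 and 58.8 CPM in Cre hearts with succinate, against 122, 74.3, 79.2 and 75.5 CPM in untreated Cre hearts, and fell 1.56-fold (log2 -0.64 ± 0.13, adjusted p = 0.028). Herpud1 had 227, 291, 262 and 268 CPM with succinate, against 160, 180, 177 and 183 CPM untreated, and rose 1.5-fold (log2 0.58 ± 0.12, adjusted p = 0.028). Neither had overlapping hearts. Without untreated Cre replicate 1 the log2 value of Pdia6 was -0.46 with an adjusted p of 0.053, and that of Herpud1 was 0.53 with an adjusted p of 0.133. The omission of any succinate Cre replicate ended the call of Pdia6 (adjusted p up to 0.091), and the omission of succinate Cre replicate 2, 3 or 4 ended that of Herpud1 (adjusted p up to 0.086).

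For the chaperones Hspa5 and Calr, untreated Cre replicate 1 was the highest heart of its group. Hspa5 had 306, 281, 270 and 328 CPM in Cre hearts with succinate, against 552, 306, 405 and 352 CPM untreated (log2 -0.45 ± 0.15, adjusted p = 0.16). Calr had 202, 206, 199 and 200 CPM with succinate, against 379, 261, 263 and 253 CPM untreated (log2 -0.52 ± 0.13, adjusted p = 0.056). In Calr the 4 treated hearts differed by an SD of 3.2 CPM, and all lay below the untreated ones, whereas for Hspa5 the groups overlapped.

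Sdf2l1 had 2.79, 1.77, 1.52 and 1.80 CPM in Cre hearts with succinate, against 12.7, 3.23, 3.83 and 3.69 CPM untreated (log2 -1.59 ± 0.45, adjusted p = 0.10). Manf had 18.1, 21.5, 18.2 and 21.2 CPM with succinate, against 53.0, 26.3, 26.9 and 26.5 CPM untreated (log2 -0.75 ± 0.21, adjusted p = 0.11). Both kept their 4 treated hearts below their 4 untreated hearts, and in both the first untreated replicate was about as high as the highest untreated floxed heart or higher. The glycoprotein isomerase Pdia3 had 103, 113, 114 and 112 CPM with succinate, against 174, 134, 138 and 127 CPM untreated (log2 -0.37 ± 0.10, adjusted p = 0.095).

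Hsp90b1 and Pdia4 had no overlap in Cre hearts. Hsp90b1 had 276, 276, 261 and 282 CPM with succinate, against 414, 308, 355 and 328 CPM untreated (log2 -0.36 ± 0.10, adjusted p = 0.094). Pdia4 had 22.2, 23.0, 22.8 and 23.4 CPM with succinate, against 49.6, 27.5, 28.5 and 30.2 CPM untreated (log2 -0.57 ± 0.16, adjusted p = 0.11). For both genes the treated hearts were again within a narrow band below the untreated ones. Pdia5, by contrast, had overlapping hearts, with 4.73, 4.45, 3.88 and 3.58 CPM with succinate, against 7.02, 4.80, 4.56 and 4.89 CPM untreated (log2 -0.36 ± 0.15, adjusted p = 0.30).

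P4hb had 250, 255, 265 and 269 CPM in Cre hearts with succinate, against 346, 292, 277 and 316 CPM untreated, a smaller log2 value of -0.24 ± 0.08 (adjusted p = 0.14). Hyou1 had 30.2, 29.5, 28.4 and 29.2 CPM with succinate, against 65.0, 30.6, 39.8 and 32.3 CPM untreated (log2 -0.52 ± 0.19, adjusted p = 0.21). Both were free of overlap, Hyou1 by a margin of less than 1 CPM. Creld2 had 8.80, 10.7, 8.62 and 8.46 CPM with succinate, against 23.2, 10.8, 12.8 and 11.4 CPM untreated (log2 -0.68 ± 0.21, adjusted p = 0.13), and Txndc5 had 44.1, 47.5, 55.6 and 51.0 CPM with succinate, against 65.5, 58.3, 50.1 and 48.6 CPM untreated (log2 -0.17 ± 0.10, adjusted p = 0.48). Creld2 was free of overlap by a narrow margin, and the hearts overlapped for Txndc5. By role, 7 of 10 chaperones and 4 of 7 isomerases had no overlap between treated and untreated Cre hearts.

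No sensor or factor passed in Cre hearts. Atf6b had 15.8, 17.5, 15.68 and 16.2 CPM with succinate, against 21.1, 17.6, 18.41 and 13.7 CPM untreated (log2 -0.12 ± 0.11, adjusted p = 0.65). Ern1 had 21.9, 13, 18 and 19.7 CPM with succinate, against 14.4, 14.4, 14.8 and 15.6 CPM untreated (log2 0.30 ± 0.15, adjusted p = 0.40). In Ern1 a single treated heart lay below the untreated ones and the other 3 above. Xbp1 had 42.8, 49.3, 46.5 and 43.3 CPM with succinate, against 70.5, 49.3, 54.0 and 49.8 CPM untreated (log2 -0.30 ± 0.13, adjusted p = 0.32), Atf6 had 112, 82.5, 102 and 115 CPM, against 121, 108, 153 and 102 CPM untreated (log2 -0.23 ± 0.15, adjusted p = 0.50), and Eif2ak3 had 10.04, 9.03, 10.8 and 10.8 CPM, against 13.2, 11.7, 10.9 and 10.7 CPM untreated (log2 -0.19 ± 0.10, adjusted p = 0.41).

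The last of the named members complete this comparison. Canx had 243, 230, 220 and 239 CPM in Cre hearts with succinate, against 300, 256, 285 and 264 CPM untreated (log2 -0.25 ± 0.09, adjusted p = 0.21). Derl1 had 53.6, 57.1, 53.6 and 59.1 CPM with succinate, against 73.9, 61.7, 68.7 and 59.5 CPM untreated (log2 -0.24 ± 0.08, adjusted p = 0.14). Edem1 had 13.2, 15.5, 14.2 and 14.3 CPM with succinate, against 30.1, 16.6, 16 and 19.9 CPM untreated (log2 -0.53 ± 0.17, adjusted p = 0.15). These 3 had no overlap between treated and untreated Cre hearts. Dnajc3 and Sec61b had log2 values of -0.29 ± 0.11 and -0.29 ± 0.20, both with overlapping hearts.

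**Figure D4:**
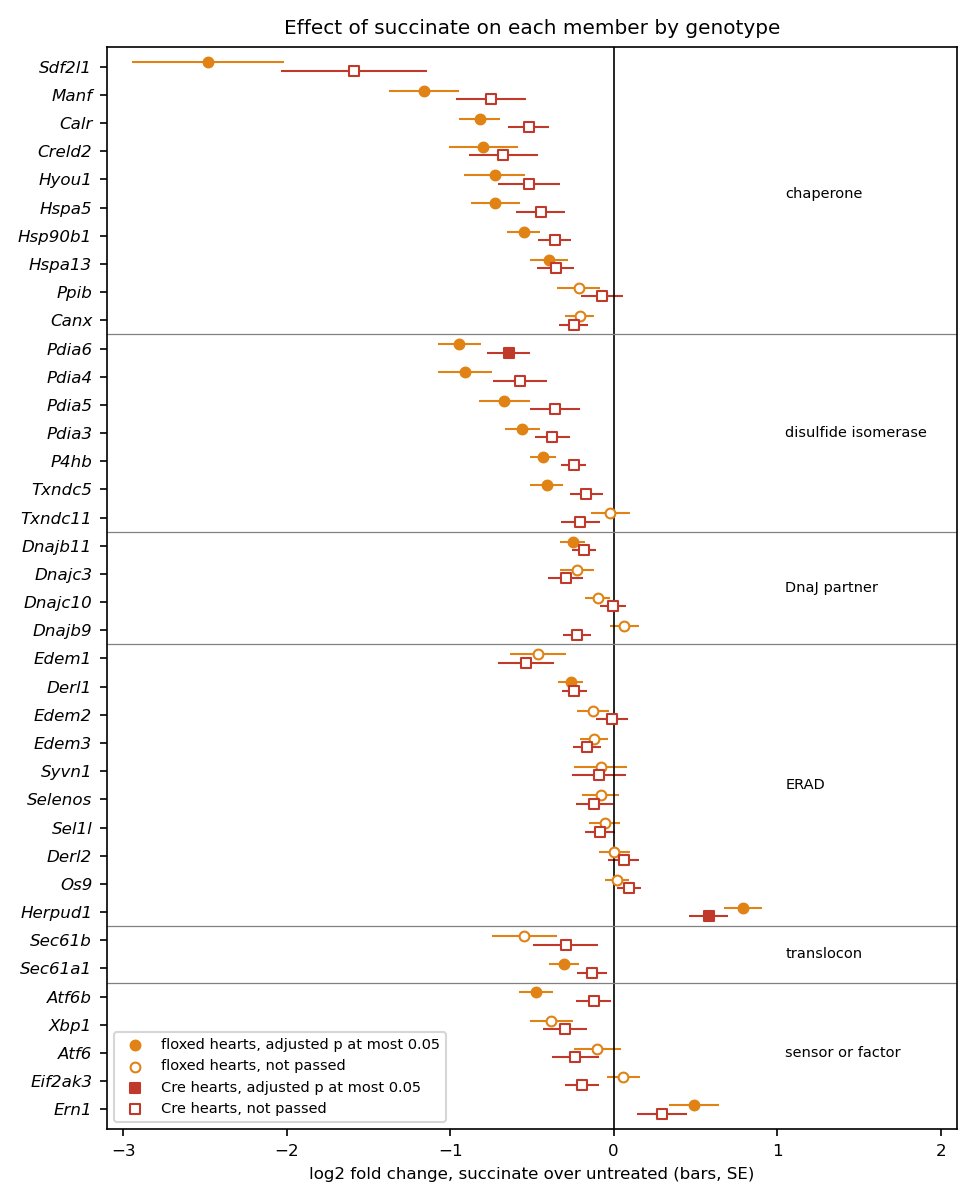
The log2 fold change of succinate over untreated hearts with its SE for each tested member, in floxed hearts (orange circles) and Cre hearts (red squares), filled where the adjusted p was at most 0.05. In floxed hearts 20 members are filled and in Cre hearts 2 are, and nearly all points of the chaperones and isomerases lie left of 0 in both genotypes.

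Untreated Cre replicate 1 stood apart for these genes. It was the highest of the 4 untreated Cre hearts for all 18 members that fell in floxed hearts, and lay on average 0.44 log2 units above its group mean for them. The same heart was the highest of its group for 28.8% of all genes tested and for 68% of the 824 genes that fell in floxed hearts. Its library had 34357187 counts, and its 19130 genes detected and scaling factor of 1.09 were the highest of the 16. Its macrophage markers summed to 301 CPM, against 211 to 235 in the other untreated Cre hearts. Its atrial markers summed to 1759, against 355 to 766, and its cardiomyocyte markers to 29657, against 34367 to 36506. The atrial sum was nearly all Nppa, with a mean log2 CPM of 8.89 over the hearts, against 0.58 for Myl4. Myl7, Sln and Bmp10 had at most 11, 2 and 8 counts in any library, so this sum does not measure atrial tissue. The part of these marker sums in its ER genes was not tested. Without this library no member was called in Cre hearts, where 0.190% of all genes were, 16 members passed at an unadjusted p of 0.05 or less, where 9.39% of all genes did, and the median log2 value of the members was -0.20, with 33 of 38 negative.

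**Figure D5:**
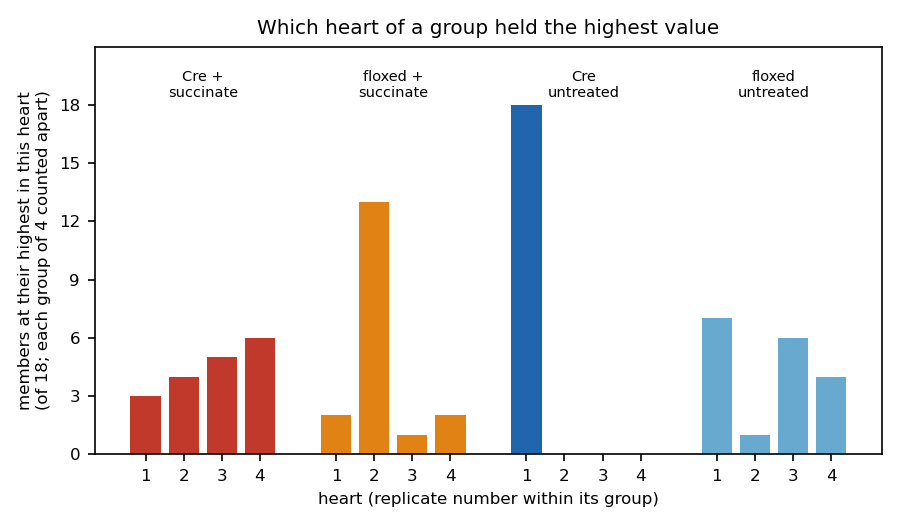
For the 18 members that fell in floxed hearts, the number for which each heart was the highest of the 4 in its group. Untreated Cre replicate 1 accounts for all 18 in its group, and succinate floxed replicate 2 for 13 in its own. No share of all genes is given for succinate floxed replicate 2, so its 13 are not set against a background.

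Averaged over the genotypes, with 8 hearts on each side, succinate gave the larger number of calls. Here 23 members fell and 2 rose, 25 of 38 in all, where 8.45% of all genes fell and 10.6% rose, 19% in all. By role 9 of 10 chaperones, 6 of 7 isomerases, 2 of 4 DnaJ partners, 2 of 10 ERAD members and 2 of 2 translocon subunits fell. Members that passed here and in neither genotype alone were Canx (log2 -0.23 ± 0.06, adjusted p = 0.019), Dnajc3 (log2 -0.26 ± 0.08, adjusted p = 0.023), Edem1 (log2 -0.50 ± 0.12, adjusted p = 0.0086), Xbp1 (log2 -0.34 ± 0.09, adjusted p = 0.018) and Sec61b (log2 -0.42 ± 0.14, adjusted p = 0.045). Of these, Sec61b was lost in 12 of 27 alternatives, 11 of them the omission of a library (untreated floxed replicates 1, 3 and 4, succinate floxed replicates 1 and 3, untreated Cre replicates 1, 2 and 3, succinate Cre replicates 1, 3 and 4), with an adjusted p of up to 0.0876, and the other was the omission of untreated floxed replicate 4 and untreated Cre replicate 1 together (adjusted p = 0.147). Leaving out those 2 libraries together also ended the calls of Dnajc3 (adjusted p = 0.064) and Xbp1 (0.062). Sec61a1 was lost in that fit (0.075) and without succinate floxed replicate 1 (adjusted p = 0.053). Ern1, which rose, was lost in 4 of 27 alternatives, that fit and the limma fits on FPKM, with an adjusted p of up to 0.074. The smallest adjusted p-values were those of Pdia6 (log2 -0.79 ± 0.09, adjusted p = 3.1e-05) and Herpud1 (log2 0.69 ± 0.08, adjusted p = 3.7e-05), which moved in opposite directions.

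Set side by side, the 2 succinate comparisons gave every member that fell in floxed hearts a negative value in Cre hearts, 18 of 18, and every one of the 18 was closer to 0 in Cre hearts. Their median log2 value was -0.61 in floxed hearts, from which they were chosen, and -0.37 in Cre hearts. Of all 824 genes that fell in floxed hearts, these members included, 96.0% were negative and 97.6% closer to 0 in Cre hearts, with medians of -0.56 in floxed and -0.27 in Cre hearts. Tested directly as an interaction of genotype and succinate, the difference was called for 0 of 38 members with edgeR, where 0% of all genes were called, with a smallest adjusted p of 0.970, and DESeq2 called 0 as well. At an unadjusted p of 0.05 or less there were 2 members, Atf6b (log2 0.35 ± 0.15) and Dnajb9 (log2 -0.29 ± 0.12), where 4.85% of all genes passed. The interval of the difference remained wide: for Sdf2l1 it was 0.90, with a 95% interval of -0.49 to 2.29, for Manf 0.41 (-0.25 to 1.07), for Hspa5 0.28 (-0.18 to 0.74) and for Pdia6 0.30 (-0.10 to 0.71). Without untreated Cre replicate 1, 12 members passed the interaction at an unadjusted p of 0.05 or less, where 8.0% of all genes did, and 0 after adjustment.

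The comparisons of genotype set hearts labelled as Cre against floxed hearts at a fixed treatment. Among untreated hearts 0 of 38 members were called by edgeR and by DESeq2 between Cre and floxed hearts, where 0.11% of all genes were (0.089% higher and 0.0205% lower), and 1 member, P4hb, passed at an unadjusted p of 0.05 or less, where 8.75% of all genes did. The members' log2 values lay between -0.49 and 0.25. Among hearts given succinate 1 member was called, where 0.691% of all genes were, 0.548% higher and 0.144% lower. P4hb had 250, 255, 265 and 269 CPM in Cre hearts, against 196, 209, 197 and 202 CPM in floxed hearts, 1.29-fold higher in Cre hearts (log2 0.37 ± 0.08, adjusted p = 0.033). Its hearts did not overlap, and the same was true of Atf6b, higher in Cre hearts, and of Dnajb9 and Eif2ak3, lower in them, which gives 2 members higher and 2 lower, where 3.96% and 3.54% of all genes were so. The call of P4hb was lost when any of the 8 treated libraries was left out, with an adjusted p of up to 0.124, while the log2 value lay between 0.35 and 0.40 over the 28 alternatives. The genotype comparisons share their hearts with the succinate comparisons, and P4hb was also higher in untreated Cre hearts (346, 292, 277 and 316 CPM) than in untreated floxed hearts (271, 273, 275 and 266 CPM) without overlap, with an adjusted p of 0.52. Only Edem2 was likewise free of overlap in untreated hearts, so 2 members were higher and 0 lower in Cre hearts, where 2.53% and 2.33% of all genes were so. Beside P4hb, among hearts given succinate, the 7 fibroblast markers summed to 998 to 1613 CPM in Cre hearts and 774 to 1118 CPM in floxed hearts, with 0 of 7 called. Of 5 listed atrial markers only 2 could be tested. Nppa was higher in Cre hearts (log2 3.13 ± 0.46, adjusted p = 0.0046) and Myl4 did not pass. The part of these in the value of P4hb was not tested.

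Motif content and direction can be set beside each other for the 32 tested members with a promoter window. Of the 8 tested members with an exact ERSE, 5 fell in floxed hearts (Hspa5, Calr, Hsp90b1, Pdia6 and Creld2), and Canx, Dnajc3 and Syvn1 did not pass. Of the 24 tested members with a window and no ERSE, 8 fell. The 6 members without a window are in neither count. Of them Hyou1, Manf, Hspa13, Derl1 and Sec61a1 fell and Atf6 did not pass, so both counts leave out members that fell and whose motif content is unknown. Of all genes tested 5.64% fell in this comparison, and the difference between the members with and without the motif was not tested. Sdf2l1, with the largest fold change, had no exact ERSE in its window, and the ERSE-II was held by Herpud1, which rose, and by Dnajb11, which fell.

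The other genes of the pathway were counted in lists of its branches, beside the 13.1% of all genes that passed in floxed hearts, 5.64% lower and 7.48% higher. Of 12 genes of the PERK branch and the integrated stress response, 2 fell in floxed hearts and 0 rose: Ddit3, the transcription factor CHOP, averaged 12.9 ± 2.11 CPM with succinate and 23.9 ± 2.87 CPM untreated (SD, n = 4 each; log2 -0.89 ± 0.15, adjusted p = 0.0013), and Atf5 averaged 39.1 ± 6.11 CPM with succinate and 54.6 ± 4.04 CPM untreated (log2 -0.48 ± 0.13, adjusted p = 0.023). Of 25 tested genes of other ER folding and disulfide chemistry, 3 fell (Mogs, Serp1 and Erp29) and 1 rose, Fkbp10, a proline isomerase of collagen folding (log2 0.78 ± 0.15, adjusted p = 0.0028). Of 21 other ERAD genes, 2 fell, Erlin1 (log2 -0.55 ± 0.14) and Man1b1 (log2 -0.30 ± 0.08), and 0 rose. Of 17 ER stress transcription factors and modulators, 3 fell and 2 rose. The ER membrane-bound factor Creb3l1 (log2 -0.74 ± 0.16), Bak1 and Traf2 fell, and Map3k5 (ASK1, log2 0.45 ± 0.12) and Bcl2l11, the last named after its value was seen, rose. The median log2 values of the 4 lists in this order were -0.24, -0.09, 0.00 and -0.06, against 0.00 for all genes. In Cre hearts none of the genes of these 4 lists passed in edgeR, where 0.917% of all genes did. The closest were Bak1 and Map3k5 (adjusted p = 0.091 each). Between genotypes among hearts given succinate, 1 of the 12 PERK branch genes passed in edgeR, Atf5, higher in Cre hearts (log2 0.62 ± 0.13, adjusted p = 0.033). Of the 25 other folding genes 1 passed, Fkbp10, lower in Cre hearts (log2 -0.70 ± 0.15, adjusted p = 0.033). No gene of the remaining lists named here passed. Of all genes 0.548% were higher and 0.144% lower.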

How the data were processed

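RNA-seq of 16 hearts was analysed from the deposited table of raw counts per gene, and levels between genes were taken from the authors' deposited FPKM table, whose values per gene are these counts scaled by a fixed length and by library size. The submitters' processing notes name fastp, HISAT2, HTSeq, DESeq2, R 3.2.0 and build GRCm39, and the labels' protocols give TRIzol extraction and a VAHTS Universal V6 library kit without naming a strand setting. Groups were taken from the genotype and treatment labels, and all labels share the same batch value, so no batch could be fitted. Counts were filtered with edgeR 4.0.16 (filterByExpr, minimum count 10, leaving 14607 of 24371 genes), scaled by TMM, and fitted as 4 group means over all 16 samples with the quasi-likelihood test; p-values were adjusted by Benjamini-Hochberg over all genes tested, and a call is an adjusted p of 0.05 or less. Standard errors are the log2 fold change over the square root of the F statistic, and 95% intervals use 12 residual degrees of freedom. The scripts were tested on simulated data. R 4.3.3, limma 3.58.1 and DESeq2 1.42.0 served for alternatives: other size factors, other filters, limma voom with sample weights, the groups compared alone, leaving out mitochondrially encoded genes, limma on log2(FPKM + 1) or log2(FPKM + 0.1), a replicate block, and each library left out.

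Members with per-heart values are the 16 of smallest p called in floxed hearts, Hspa5 and the sensors, and up to 6 called in another comparison alone; from other lists up to 4 called genes, or the closest, are named. The members and lists were chosen with earlier results of these data known. Correlations between members over hearts, and genes most alike in pattern, were planned but are not given, because hearts fall into clusters by treatment. Promoter sequences are from RefSeq. Depth was 27835235 to 34700996 counts per library, and floors cover counting error only.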

Additional observations from a re-analysis of the deposited data

Results flagged for a closer look

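In each group of 4 hearts the highest or lowest value of each member was set against the spread of the other 3. By Dixon's test 15 of 152 sets of member and group had a heart far from the rest, where chance gives about 5% for independent sets. These sets share hearts and are not independent. The share of all genes flagged is not given, so the count is not shown to be particular to these members. In 7 of them the heart was untreated Cre replicate 1, with values above the other untreated Cre hearts: Calr at 379 CPM (others 253 to 263), Pdia4 at 49.6 CPM (27.5 to 30.2), Pdia5 at 7.02 CPM (4.56 to 4.89), Pdia6 at 122 CPM (74.3 to 79.2), Sdf2l1 at 12.7 CPM (3.23 to 3.83), Manf at 53.0 CPM (26.3 to 26.9) and Creld2 at 23.2 CPM (10.8 to 12.8). The same library carried the highest macrophage marker sum of the untreated Cre hearts and the highest atrial sum, which was nearly all Nppa. The part of these in its values was not tested.

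In 4 sets the heart was untreated floxed replicate 2: it was low for Pdia3 at 125 CPM (others 157 to 158), Edem2 at 8.93 CPM (10.1 to 10.2) and Selenos at 15.4 CPM (19.7 to 20.4), and high for Pdia5 at 6.13 CPM (5.49 to 5.58). The others were Hsp90b1 in succinate floxed replicate 2, high at 277 CPM (others 233 to 235), Canx in untreated floxed replicate 4, low at 247 CPM (298 to 304), Pdia3 in succinate Cre replicate 1, low at 103 CPM (112 to 114), and Creld2 in succinate Cre replicate 2, high at 10.7 CPM (8.46 to 8.80).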

How the results depend on the processing

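Of the 20 members called in floxed hearts, 12 passed in each of the 28 alternatives, as did 20 of the 25 called on average over the genotypes (27 alternatives). Leaving out each library in turn gave 13 to 22 members called for succinate in floxed hearts, the lowest without succinate floxed replicate 1, 0 to 3 for succinate in Cre hearts, 23 to 26 on average over the genotypes, and 0 to 1 for genotype with succinate. It gave 0 for genotype without succinate and for the interaction. For succinate in Cre hearts, where 2 members were called, DESeq2 called 11, limma on log2(FPKM + 1) and on log2(FPKM + 0.1) called 1 each, and the fit of the groups compared alone called 1. Without the filter on low counts the genotype call of P4hb with succinate was lost, leaving 0. With untreated floxed replicate 4 and untreated Cre replicate 1 left out together, a choice made after seeing the data, 1 member was called in Cre hearts, 2 between genotypes without succinate, and 21 in floxed hearts. The causes were not tested. Shares of all genes called are not given beside these counts of members, so the counts are not set against a background. Leaving out a library moved the log2 value of Eif2ak3 in floxed hearts between -0.027, without untreated floxed replicate 1, and 0.083, the only reversed sign among the named members and alternatives.

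Same-numbered samples of different groups did not deviate together: of 24 pairs, 3 had a correlation over 0.1 (range -0.12 to 0.32), and 3 of 16 samples were closest to their own number. A fit with the replicate number as a block left the counts of members called at 20 in floxed hearts, 2 in Cre hearts, 25 on average, 0 and 1 for genotype without and with succinate, and 0 for the interaction.

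With 4 hearts a group and a biological coefficient of variation of 0.159, a member that misses the threshold is not shown to be equal between the groups. Sucnr1 and Derl3 were too shallow to compare, and no source used here gives the strand setting of the counting, which leaves reads of overlapping genes undivided.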

Other observations

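Genes of protein entry into the ER and of exit from it were counted in the same comparisons. Of 26 tested genes of the translocon, the signal peptidase and the oligosaccharyltransferase, which thread, cut and glycosylate new chains, 6 fell and 0 rose with succinate in floxed hearts, where 5.64% of all genes fell, and their median log2 value was -0.23, against 0.00 for all genes. Ostc, a subunit of the glycosylating complex, averaged 18.5 ± 2.05 CPM in floxed hearts with succinate and 28.7 ± 0.827 CPM in untreated floxed hearts (SD, n = 4 each; log2 -0.64 ± 0.11, adjusted p = 0.0011). Ddost averaged 57.4 ± 5.20 CPM with succinate and 74.9 ± 3.49 CPM untreated (log2 -0.38 ± 0.09, adjusted p = 0.0086), and Rpn1 and Rpn2, ribophorins of the same complex, fell with log2 values of -0.30 and -0.27. In Cre hearts 0 of the 26 passed, where 0.917% of all genes did. Ostc was closest (log2 -0.44 ± 0.11, adjusted p = 0.054), and 25 of 26 values were negative. Averaged over the genotypes 12 fell and 0 rose, where 8.45% of all genes fell and 10.6% rose.

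Of 18 genes of coat protein II and ER exit, 5 fell and 0 rose in floxed hearts, where 5.64% of all genes fell and 7.48% rose. Their median log2 value was -0.14. The receptor that returns escaped chaperones to the ER, Kdelr2, averaged 21.1 ± 2.23 CPM with succinate and 28.9 ± 2.60 CPM untreated (log2 -0.45 ± 0.09, adjusted p = 0.0048), and the cargo receptors Surf4 (log2 -0.32 ± 0.07), Mcfd2 (log2 -0.29 ± 0.06) and Tmed10 (log2 -0.24 ± 0.06) fell as well. In Cre hearts 0 of 18 passed, where 0.917% of all genes did, with Kdelr2 closest (log2 -0.31 ± 0.09, adjusted p = 0.12).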
